A study of Mus musculus with 7 samples.

Results

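The 10 genes described here belong to the TNF receptor superfamily: Tnfrsf12a, Tnfrsf1a, Tnfrsf1b, Tnfrsf10b, Fas, Tnfrsf11b, Tnfrsf21, Tnfrsf22, Tnfrsf23 and Ltbr. They were chosen by name, with earlier results of these data known. Each name matched 1 row, 10 of the 54532 genes in the deposited count table. The libraries were made from kidney tissue, of C57BL/6J mice 6 to 8 weeks old, which the series' design text calls male. Every animal received cisplatin, a platinum drug that damages kidney tubules, at 20 mg/kg by tail vein. The 4 saline libraries came from mice labelled saline, and the 3 DXZ libraries from mice given DXZ, a code the labels do not spell out, injected into the tail vein at 40 mg/kg, first 30 min ahead of cisplatin and after that every 24 h over 3 days. No kidney without cisplatin was analysed here, so each comparison is DXZ with cisplatin against saline with cisplatin. The labels do not say whether each library is a separate animal, so p-values measure the spread between these libraries.

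TNF receptor superfamily proteins are cell surface receptors, with some soluble decoys, whose cysteine-rich outer part binds trimeric ligands of the TNF superfamily. Those with a death domain inside the cell, such as TNF receptor 1, Fas, the TRAIL receptor encoded by Tnfrsf10b and death receptor 6, can assemble caspase-8 or RIPK1 complexes that kill the cell. Those without one, such as the TWEAK receptor Fn14, TNF receptor 2 and the lymphotoxin beta receptor, bind TRAF adaptors and activate NF-kB. In kidney, TNF and TWEAK signalling through tubule cells is a known part of toxic and ischaemic injury.

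Kidneys of the DXZ group had more transcript of the TWEAK receptor Tnfrsf12a, of the TNF receptor Tnfrsf1b and of the TRAIL decoy receptor Tnfrsf23 than kidneys of the saline group, by 2.19-fold, 1.81-fold and 4.19-fold. These 3 of the 9 members with enough counts to test passed edgeR's quasi-likelihood test at a Benjamini-Hochberg adjusted p below 0.05 over 15351 genes, and 0 members fell. Over all tested genes, 3.24% were called higher and 2.31% lower. The main death receptor of TNF, Tnfrsf1a, and Ltbr, Fas and Tnfrsf21 did not pass. Nor did the death domain TRAIL receptor Tnfrsf10b (2.015-fold, adjusted p = 0.0588 by edgeR), which passed by DESeq2, or Tnfrsf22 (2.011-fold, adjusted p = 0.179 by edgeR). The 3 calls were lost when saline 4 or DXZ 2 was left out, with log2 fold changes still between 0.80 and 1.86 without saline 4 and between 0.89 and 1.64 without DXZ 2, and 4 genes and 1 gene were then called among all genes.

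The sequences directly upstream of 4 members are shown: the 3 receptors that rose and Fas, 1 of the members that did not pass. Whether these sequences control the genes was not tested. They are from RefSeq on GRCm38.p6, written 5′ to 3′ on the strand of the gene, and lie wholly upstream of the gene as the deposited table places it. For Tnfrsf12a the stretch is chr17:23677469-23677699 (minus strand), for Tnfrsf1b chr4:145246871-145247120 (minus), for Tnfrsf23 chr7:143685876-143686125 (minus) and for Fas chr19:34290409-34290658 (plus). Capitals mark matches to the motifs described after them.
Tnfrsf12a: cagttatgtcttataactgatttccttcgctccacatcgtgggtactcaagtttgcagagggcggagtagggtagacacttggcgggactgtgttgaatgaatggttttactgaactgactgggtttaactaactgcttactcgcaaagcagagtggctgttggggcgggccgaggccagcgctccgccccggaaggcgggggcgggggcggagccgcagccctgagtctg
Tnfrsf1b: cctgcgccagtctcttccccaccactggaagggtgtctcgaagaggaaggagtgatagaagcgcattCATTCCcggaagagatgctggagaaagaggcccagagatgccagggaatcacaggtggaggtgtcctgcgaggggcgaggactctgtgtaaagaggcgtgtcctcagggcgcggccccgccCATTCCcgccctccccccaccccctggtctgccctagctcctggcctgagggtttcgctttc
Tnfrsf23: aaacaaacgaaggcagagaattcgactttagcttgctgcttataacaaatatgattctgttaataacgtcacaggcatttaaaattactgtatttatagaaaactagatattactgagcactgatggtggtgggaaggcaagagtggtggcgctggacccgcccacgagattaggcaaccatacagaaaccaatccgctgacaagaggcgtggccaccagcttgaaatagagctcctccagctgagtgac
Fas: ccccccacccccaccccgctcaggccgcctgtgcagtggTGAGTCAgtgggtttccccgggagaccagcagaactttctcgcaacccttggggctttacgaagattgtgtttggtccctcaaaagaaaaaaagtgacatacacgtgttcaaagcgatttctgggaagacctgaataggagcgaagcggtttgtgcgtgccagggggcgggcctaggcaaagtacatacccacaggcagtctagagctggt
RefSeq promoter windows, 250 bases before to 50 after the start, were matched for 7 of the 10 members, all but Tnfrsf10b, Tnfrsf11b and Tnfrsf22. Both strands were searched for AP-1 (TGANTCA), TEAD (GGAATG) and NF-kB letters (3 G, 2 of any base, 3 T and 2 C in a row), which do not contain one another. Tnfrsf1b held 2 TEAD matches on the reverse strand, Fas held 1 AP-1 match, and the other 5 windows held none of the 3 motifs. Of all 32851 promoter windows of this length, 7.81% held the AP-1 letters, 1.63% the NF-kB letters and 14.7% the TEAD letters. A match describes letters in the window and not a bound site.

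Libraries held 16058157 to 18133736 counts and 20803 to 21827 detected genes, with 5.18% to 8.35% of counts from mitochondrial genes. The tissue label was checked on 8 proximal tubule markers, of which none was at 0 and whose summed level was 6316 to 11930 CPM in saline and 2865 to 3819 CPM in DXZ, where CPM is the count scaled by TMM-adjusted library size, as edgeR's cpm gives it. The 10 tubule injury markers summed to 8307 to 23800 CPM in saline and 22090 to 36530 in DXZ, ranges that overlapped and were mostly Spp1 (6465 to 20090 CPM in saline, adjusted p = 0.526 by edgeR). For the marker counts given here, the shares over all tested genes were 3.24% called higher and 2.31% called lower. Of the 10 injury markers, the keratin genes Krt8, Krt18 and Krt20 rose and 0 fell, and of the proximal tubule markers 5 of 8 fell. As for the receptors, no marker of these 2 lists was called without saline 4 or without DXZ 2. The part of these marker changes in the receptor results was not tested. The 10 macrophage markers, none at 0, summed to 148 to 264 CPM in saline and to 435, 198 and 142 CPM in DXZ 1, 2 and 3. Of these, 2 were called higher, though not without saline 4 or without DXZ 2, and the other 8 overlapped between groups. Of the 8, Csf1r, C1qa and C1qc were called lower by edgeR with DXZ 1 left out. The 2, named after their values were seen, were Cd68, at 7.97 to 16.95 CPM in saline and 40.6, 57.0 and 32.1 CPM in DXZ 1 to 3 (adjusted p = 0.0215 by edgeR), and Cd14, at 24.9 to 38.6 CPM and 53.6, 67.1 and 65.7 CPM (0.0275). Endothelial markers (8, none at 0) summed to 255 to 397 CPM in saline and 398, 138 and 92.1 in DXZ 1 to 3, and fibroblast and mural markers (8, none at 0) to 234 to 558 and to 854, 142 and 92.4. The 8 neutrophil markers summed to at most 17.98 CPM with Mpo at 0 in every library, and the 8 T and NK cell and 6 B cell markers to at most 5.96 and 7.63 CPM. In whole tissue, fewer cells of a type and less RNA per cell cannot be told apart.

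Tnfrsf12a (ENSMUSG00000023905, chromosome 17, 23675445 to 23677468, minus strand, GRCm38) encodes Fn14, the receptor for TWEAK. It stood at 120.6, 171, 174 and 142 CPM in saline 1 to 4. The DXZ libraries 1 to 3 stood at 336, 287 and 372 CPM. Every DXZ library lay above every saline library, with no overlap. The group means were 152 ± 25.4 CPM (SD, n = 4) and 332 ± 42.4 CPM (SD, n = 3), a log2 fold change of 1.13 (adjusted p = 0.0204 by edgeR, SE 0.16). It ranked 60 by p among the 15351 tested genes. The log2 fold change lay between 1.03 and 1.21 when each library was left out in turn, but the adjusted p was 0.0747 without saline 4 and 0.0612 without DXZ 2. Without DXZ 1, where the macrophage sum was highest, the log2 fold change was 1.119 (adjusted p = 0.0195 by edgeR). Cd68 and Cd14 were higher in all 3 DXZ libraries too, but were the only 2 of the 10 macrophage markers called higher. The other macrophage markers overlapped between groups, and the list's median log2 fold change without DXZ 1 was -1.32. The part of macrophage RNA in the Tnfrsf12a result was not tested.

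Tnfrsf1b (chromosome 4, 145213463 to 145246870, minus strand) encodes TNF receptor 2, which binds TNF, lacks a death domain and is best known from immune and endothelial cells. Its level was 10.4, 14.9, 15.1 and 11.7 CPM in saline 1 to 4. In DXZ 1 to 3 the values were 25.9, 21.8 and 22.9 CPM. The groups did not overlap. The means of 13.0 ± 2.36 CPM (SD, n = 4) and 23.5 ± 2.13 CPM (SD, n = 3) gave a log2 fold change of 0.85 (adjusted p = 0.0311 by edgeR, SE 0.16). The macrophage markers Cd68 and Cd14 were, like Tnfrsf1b, above every saline library in each DXZ library, while the other 8 macrophage markers overlapped between groups. With DXZ 1 left out, edgeR called Cd68 and Cd14 higher and the macrophage markers Csf1r, C1qa and C1qc lower. The median log2 fold change of the macrophage list was then -1.32. In that fit all 8 endothelial markers were called lower too, with a list median of -1.45, where 782 of 15610 tested genes were called lower. With all 7 libraries 0 endothelial markers were called. The part of macrophage or endothelial RNA in the Tnfrsf1b result was not tested. Without DXZ 1 its log2 fold change was 0.78 (adjusted p = 0.0391 by edgeR). It did not pass without saline 2 (0.93, adjusted p = 0.0507 by edgeR), saline 4 (0.80, 0.0958), DXZ 2 (0.89, 0.0786) or DXZ 3 (0.87, 0.0754).

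The TRAIL receptors of the mouse are Tnfrsf10b, the signalling receptor with a death domain, and Tnfrsf22 and Tnfrsf23, decoys without one. Tnfrsf10b (chromosome 14, 69767472 to 69784411, plus strand) was at 9.35, 17.96, 11.1 and 9.64 CPM in saline 1 to 4. The DXZ libraries 1 to 3 stood at 25.7, 28.3 and 18.7 CPM. All DXZ libraries were above all saline libraries, but DXZ 3 and saline 2 lay close together. Its means were 12.01 ± 4.04 (SD, n = 4) and 24.2 ± 4.99 CPM (SD, n = 3), and the log2 fold change of 1.01 (adjusted p = 0.0588 by edgeR, SE 0.26) did not pass. It passed without saline 2 (1.27, adjusted p = 0.0391 by edgeR), with no filter (0.0320) and by DESeq2 (adjusted p = 0.00530).

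Tnfrsf23 (chromosome 7, 143665809 to 143685872, minus strand) had the largest fold change of the 9 tested members. It was at 3.04, 8.74, 6.29 and 2.76 CPM in saline 1 to 4. In DXZ 1 to 3 the values were 20.7, 32.7 and 12.1 CPM. The groups did not overlap, although the DXZ values differed by more than the distance from DXZ 3 to the saline group. The means were 5.21 ± 2.85 CPM (SD, n = 4) and 21.8 ± 10.3 CPM (SD, n = 3), with a log2 fold change of 2.07 (adjusted p = 0.0453 by edgeR, SE 0.47). Of the fits without 1 library only that without DXZ 1 kept the call (2.10, adjusted p = 0.0476 by edgeR). The others gave log2 fold changes of 1.64 (without DXZ 2) to 2.44 (without saline 2) and adjusted p-values of 0.0507 to 0.135, with saline 1, 3 and 4 and DXZ 3 between them.

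Tnfrsf22 (chromosome 7, 143634806 to 143649661, minus strand) lies 16147 bases from Tnfrsf23. It was at 2.52, 6.54, 3.73 and 2.41 CPM in saline and 8.29, 10.3 and 4.37 CPM in DXZ. DXZ 3 fell within the saline range, and the log2 fold change of 1.01 (adjusted p = 0.179 by edgeR, SE 0.42) did not pass. The transcripts of this pair share sequence: of all 50-base words in the GENCODE M21 transcripts, 27.4% of those of Tnfrsf22 and 19.3% of those of Tnfrsf23 occur in another gene, 719 of them in both. Reads could therefore be split between them, and their separate values are uncertain. Their summed level was 5.56, 15.3, 10.02 and 5.17 CPM in saline 1 to 4. DXZ 1, 2 and 3 had 29.0, 42.9 and 16.5 CPM, so saline 2 and DXZ 3 were neighbours without overlap. The antisense gene E230032D23Rik, which overlaps both, had 0 to 3 counts per library, and whether counting used strand is not given in the sources used here. The third gene of this family on the same chromosome, Tnfrsf26, was at 1.14 ± 0.56 CPM (SD, n = 4) and 0.64 ± 0.36 CPM (SD, n = 3), with a log2 fold change of -0.82 (adjusted p = 0.409 by edgeR).

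**Figure D1:**
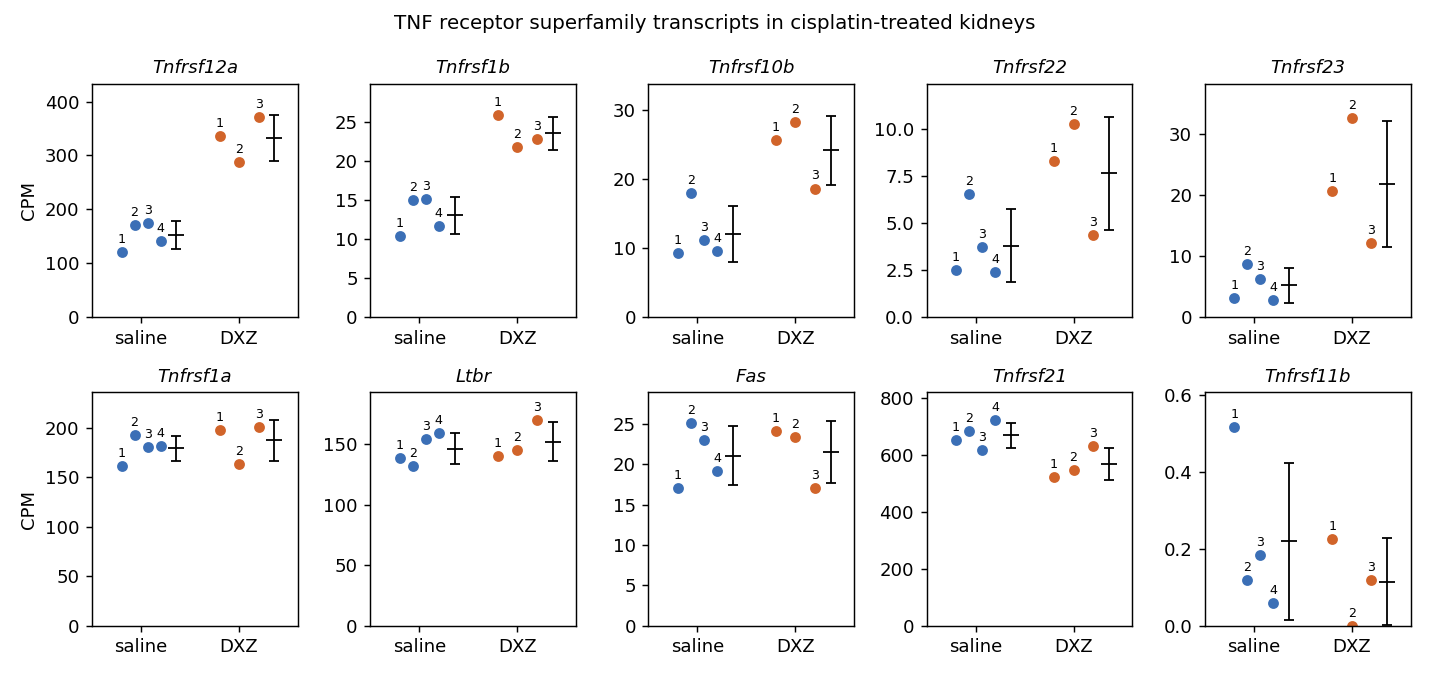
Level of each of the 10 receptors in CPM (vertical axes, each from 0) in the 4 saline and 3 DXZ libraries; points are libraries with their replicate number, and the bar beside each group is the mean with its SD. Tnfrsf12a, Tnfrsf1b, Tnfrsf10b and Tnfrsf23 show no overlap between groups, while the saline and DXZ ranges of Tnfrsf1a, Ltbr, Fas, Tnfrsf21 and Tnfrsf22 overlap.

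Among the members that did not pass, Tnfrsf1a (chromosome 6, 125349362 to 125362484, plus strand) encodes TNF receptor 1, the death domain receptor that carries most TNF signals. It was at 162, 193, 181 and 181 CPM in saline and 197, 164 and 201 CPM in DXZ. The groups overlapped, and its log2 fold change was 0.07 (adjusted p = 0.760 by edgeR, SE 0.11) with a 95% interval of -0.19 to 0.32, or 0.88-fold to 1.25-fold. Ltbr, the lymphotoxin beta receptor, lies 35476 bases away (chromosome 6, 125306571 to 125313885, minus strand). Its level was 139, 132, 155 and 160 CPM in saline and 141, 146 and 171 CPM in DXZ. These ranges overlapped too, and the log2 fold change was 0.06 (adjusted p = 0.796 by edgeR, SE 0.11; 95% interval -0.20 to 0.31). Changes of 1.5-fold lay outside the intervals of both genes.

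Fas (chromosome 19, 34290659 to 34327770, plus strand) is the receptor for Fas ligand and a p53 target. It was at 17.0, 25.0, 22.97 and 19.1 CPM in saline and 24.1, 23.4 and 17.1 CPM in DXZ. The DXZ range lay inside the saline range. The log2 fold change was 0.03 (adjusted p = 0.934 by edgeR, SE 0.18; 95% interval -0.38 to 0.44), and its sign differed between settings. Tnfrsf21 (chromosome 17, 43016555 to 43089189, plus strand) encodes death receptor 6. It was at 652, 684, 615 and 720.4 CPM in saline 1 to 4. In DXZ 1 to 3 the values were 523, 547 and 629 CPM. Only DXZ 3 reached the saline range, and the log2 fold change of -0.24 (adjusted p = 0.265 by edgeR, SE 0.12; 95% interval -0.52 to 0.04) did not pass.

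Tnfrsf11b (chromosome 15, 54250619 to 54278484, minus strand) encodes osteoprotegerin, a secreted decoy for RANK ligand and TRAIL. It had 9, 2, 3 and 1 counts in saline 1 to 4. DXZ 1, 2 and 3 had 4, 0 and 2, too few to test. The 0 counts in DXZ 2 allow a level of up to 0.181 CPM (3 counts, counting error only). No difference was detectable at this depth.

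**Figure D2:**
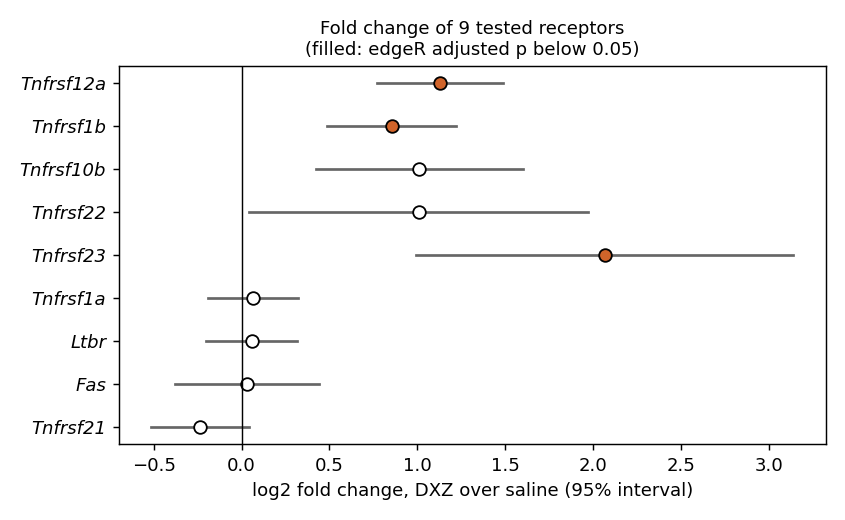
Log2 fold change of DXZ over saline (horizontal axis) for the 9 tested receptors, with 95% intervals as lines and filled points for an edgeR adjusted p below 0.05. Tnfrsf12a, Tnfrsf1b and Tnfrsf23 are filled, and the intervals of Tnfrsf1a, Ltbr, Fas and Tnfrsf21 include 0.

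The members were chosen with earlier results of these data known, so the figures here describe the list and do not test it. Over the 9 tested members the median log2 fold change was 0.85, against 0.01 over all tested genes. The 12 tested superfamily genes outside the list had a median of 0.22 and 0 calls. All DXZ libraries were above all saline libraries for 4 members, and below for 0, where 12.8% of all tested genes lay above and 11.3% below. At an unadjusted edgeR p below 0.05, 5 members were higher and 0 lower, against 14.0% and 11.4% of all tested genes. The median was between 0.72 (without DXZ 2) and 0.93 (without saline 3) when single libraries were left out.

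Per transcript length, in the deposited FPKM (fragments per length of transcript and size of library), the receptors spanned a wide range of levels. In saline kidneys Tnfrsf21 was the highest at 162 ± 11.4 FPKM (SD, n = 4), above all others in each of the 4 libraries. Tnfrsf12a at 78.3 ± 13.0, Tnfrsf1a at 68.8 ± 4.92 and Ltbr at 62.0 ± 5.63 FPKM followed, and their ranges over libraries overlapped. Fas was at 11.6 ± 1.98 FPKM, Tnfrsf1b at 3.40 ± 0.61 and Tnfrsf10b at 2.19 ± 0.73, the last 2 overlapping. Tnfrsf23 at 1.31 ± 0.71 and Tnfrsf22 at 0.90 ± 0.45 FPKM also overlapped, with Tnfrsf23 in part within the range of Tnfrsf10b, and Tnfrsf11b was at 0.08 ± 0.07.

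The order changed at the top in DXZ kidneys. Tnfrsf12a was at 170 ± 21.1 FPKM (SD, n = 3) and Tnfrsf21 at 137 ± 14.3 FPKM, and Tnfrsf12a was the higher of the pair in each DXZ library (170 against 125 in DXZ 1, 149 against 134 in DXZ 2 and 192 against 152 in DXZ 3). Tnfrsf12a made up 17.4%, 21.6%, 22.7% and 18.2% of the summed FPKM of the 10 receptors in saline 1 to 4. In DXZ 1 to 3 the values were 37.1%, 33.7% and 37.1%. The share of Tnfrsf21 was 41.5 ± 2.98% (SD, n = 4) in saline and 28.9 ± 1.61% (SD, n = 3) in DXZ. The summed level was 390.3 ± 23.7 FPKM in saline and 473 ± 38.5 FPKM in DXZ. Tnfrsf23 was at 5.47 ± 2.63 FPKM and Tnfrsf1b at 6.11 ± 0.47 FPKM in DXZ, so the decoy receptor was close to TNF receptor 2 there, with overlapping ranges.

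**Figure D3:**
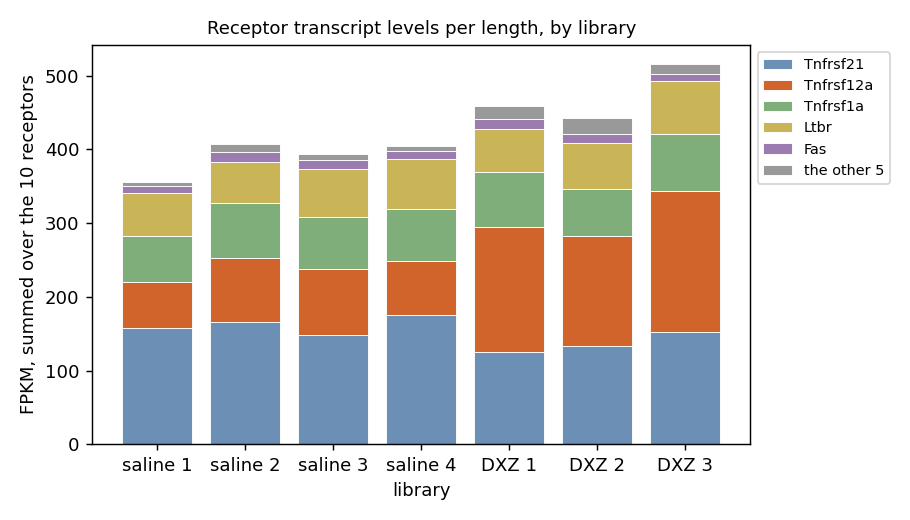
Summed FPKM of the 10 receptors (vertical axis) in each library, stacked by gene, with the 5 least abundant genes joined in grey. The Tnfrsf12a segment runs from 62.1 to 89.4 FPKM in saline and from 149 to 192 FPKM in DXZ, while Tnfrsf21 runs from 149 to 176 and from 125 to 152 FPKM.

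Ratios of FPKM within a library compare receptors with each other or with a ligand, free of library scaling. Tnfrsf12a over Tnfrsf1a was 1.0, 1.19, 1.29 and 1.05 in saline 1 to 4. DXZ 1, 2 and 3 had 2.28, 2.36 and 2.48. Tnfrsf1b over Tnfrsf1a was 0.05 ± 0.007 (SD, n = 4) and 0.09 ± 0.007 (SD, n = 3), and Tnfrsf12a over its ligand gene Tnfsf12 was 9.31 ± 3.42 and 20.1 ± 4.08. For these 3 ratios the groups did not overlap. The exact two-sided permutation p was 0.0571 for each, the smallest that 4 against 3 libraries allow (0.0762 adjusted over the 4 ratios computed). In the same libraries Tnfrsf12a and Tnfrsf1b were called higher, while Tnfrsf1a and Tnfsf12 had log2 fold changes of 0.07 and -0.06. These 3 ratios restate those results and are not separate evidence. The p-values do not account for the choice of ratios. The decoys Tnfrsf22 and Tnfrsf23 together over Tnfrsf10b were at 0.97 ± 0.25 and 1.59 ± 0.44 with overlapping groups (exact two-sided permutation p = 0.114). None of the 4 ratios could or did reach an exact p below 0.05.

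**Figure D4:**
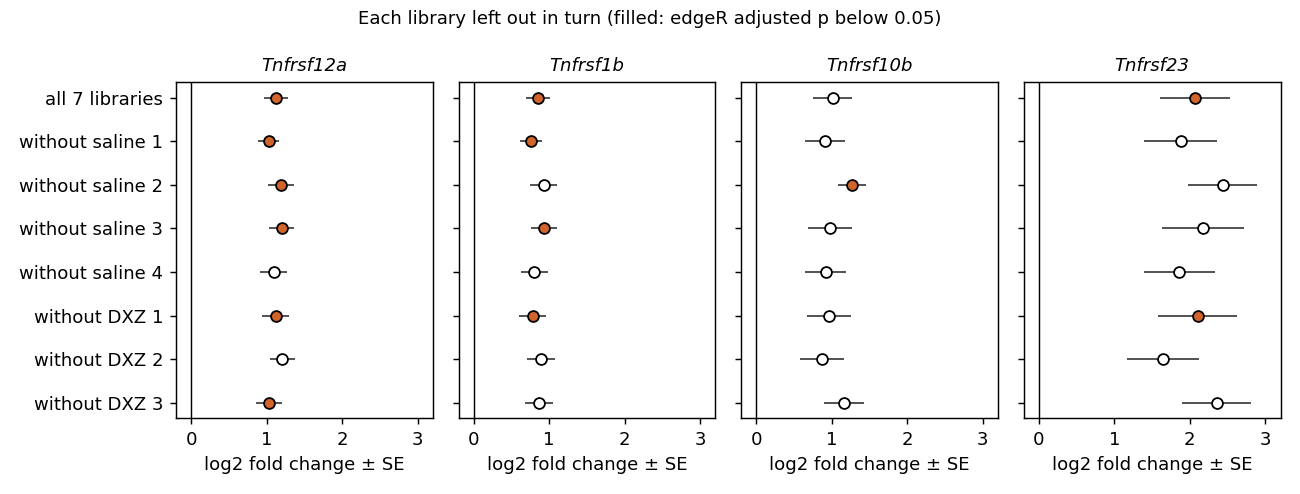
Log2 fold change with its SE (horizontal axes) of Tnfrsf12a, Tnfrsf1b, Tnfrsf10b and Tnfrsf23 with all 7 libraries and with each library left out (rows), filled where the edgeR adjusted p is below 0.05. The points of Tnfrsf12a stay between 1.03 and 1.21 and those of Tnfrsf23 between 1.64 and 2.44, and no point is filled without saline 4 or DXZ 2.

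Most ligand genes of the superfamily had too few counts to test, and the most abundant were Tnfsf10 and Tnfsf12. Of 18 TNF superfamily ligand genes 15 had a count and 6 had enough to test. Of the 6, 0 passed by edgeR, DESeq2 or limma-voom, and 0 had an unadjusted edgeR p below 0.05. Over all tested genes 3.24% were called higher and 2.31% lower, and 14.0% were higher and 11.4% lower at an unadjusted p below 0.05. That unadjusted threshold was met by 2 of 7 ligands without DXZ 1 (4867 of all 15610 genes) and by 3 of 9 without DXZ 2 (3191 of 15705). Tnfsf12, which encodes TWEAK, was at 16.3, 16.5, 9.77 and 11.9 CPM in saline and 14.7, 12.8 and 11.7 CPM in DXZ. Its log2 fold change was -0.06 (adjusted p = 0.898 by edgeR, SE 0.21; 95% interval -0.53 to 0.42), and its groups overlapped. Tnfsf10, which encodes TRAIL, was at 27.6, 28.8, 23.8 and 21.8 CPM in saline and 40.4, 20.3 and 42.9 CPM in DXZ, with DXZ 2 below the saline range and the other two above it (log2 fold change 0.44, adjusted p = 0.308 by edgeR). Tnf had 16, 7, 5 and 3 counts in saline and 14, 0 and 0 in DXZ. Fasl had 1 count in saline 1 and 0 in every other library. The median log2 fold change of the tested ligands was -0.01, and it ran from -1.24 without DXZ 1 to 0.18 without saline 1.

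Other receptors of the superfamily showed no call. Of 18 genes, all with at least 1 count, 12 were tested and 0 passed by edgeR, DESeq2 or limma-voom. Over all tested genes 3.24% were called higher and 2.31% lower. At an unadjusted edgeR p below 0.05, 1 of the 12 was higher and 1 lower, against 14.0% and 11.4% of all tested genes. Named after their values were seen, they were Tnfrsf18 (log2 fold change 1.10, adjusted p = 0.149 by edgeR) and Tnfrsf25 (-1.28, 0.0877). The groups of neither gene overlapped. Eda2r, a p53-responsive receptor for ectodysplasin, was the most abundant of those named, at 7.57, 39.8, 34.6 and 22.6 CPM in saline and 44.8, 61.6 and 36.3 CPM in DXZ. Its groups overlapped (log2 fold change 0.86, adjusted p = 0.293 by edgeR). Tnfrsf11a, encoding RANK, had a log2 fold change of -0.47 and Tnfrsf19 of 1.002 (adjusted p = 0.568 by edgeR and 0.495). Tnfrsf19 had 41 and 34 counts in DXZ 1 and DXZ 3 but 1 in DXZ 2. The list's median was 0.22, and it ran from -0.51 without DXZ 1 to 0.47 without DXZ 3.

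Of the 24 adaptor and ubiquitin genes that act directly beneath the receptors, 1 rose and 1 fell, and at an unadjusted p below 0.05, 4 were higher and 1 lower (median log2 fold change 0.10). These shares were near or below those of all tested genes, 3.24% called higher, 2.31% called lower, and 14.0% higher and 11.4% lower at an unadjusted p below 0.05. Birc3, an inhibitor of apoptosis that NF-kB induces and that ubiquitinates RIPK1, was at 26.0, 34.0, 25.6 and 23.7 CPM in saline and 50.4, 40.2 and 41.7 CPM in DXZ. Ripk1, the kinase that links TNF receptor 1 to both survival and death, was at 44.4, 40.4, 42.8 and 45.7 CPM in saline and 31.1, 33.3 and 34.1 CPM in DXZ. The groups of both genes did not overlap, and Birc3 rose (log2 fold change 0.69, adjusted p = 0.0410 by edgeR, SE 0.15) while Ripk1 fell (-0.40, adjusted p = 0.0431 by edgeR, SE 0.09). Traf2, the adaptor that recruits BIRC proteins, was at 25.2 ± 3.18 CPM (SD, n = 4) and 28.8 ± 3.24 CPM (SD, n = 3) and did not pass (log2 fold change 0.20, adjusted p = 0.393 by edgeR). Ripk1 did not pass in any fit that left out a library (edgeR adjusted p 0.0553 to 0.128), and Birc3 passed in 1 of 7, without saline 2 (0.0393). Without saline 1, 3 or 4 or any 1 DXZ library, Birc3 had edgeR adjusted p-values of 0.0526 to 0.111.

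Among the 13 genes of the caspase and necroptosis arm, 12 were tested and 3 rose (median log2 fold change 0.28), with 7 higher and 0 lower at an unadjusted edgeR p below 0.05. Over all tested genes 3.24% were called higher, and 14.0% were higher and 11.4% lower at an unadjusted p below 0.05. Those that rose were Ripk3 and Mlkl, the kinase and the membrane-rupturing effector of necroptosis, at 1.46 and 1.67 (adjusted p = 0.0313 by edgeR for both), and Dap, a death-associated protein gene. Mlkl was at 3.38, 6.54, 3.60 and 3.41 CPM in saline and 10.4, 19.1 and 11.1 CPM in DXZ, and Ripk3 was at 1.49 to 1.78 CPM in saline and 3.01 to 5.56 CPM in DXZ. Neither gene had overlapping groups. Dap was at 107, 160, 134 and 130.1 CPM in saline and 200.1, 269.5 and 212 CPM in DXZ, with no overlap (log2 fold change 0.78, adjusted p = 0.0379 by edgeR, SE 0.16). Casp8, the initiator caspase of death receptors, was at 61.2, 61.4, 49.7 and 50.6 CPM in saline and 62.8, 96.9 and 75.5 CPM in DXZ. Its groups did not overlap, but DXZ 1 lay next to saline 2, and it did not pass (log2 fold change 0.49, adjusted p = 0.102 by edgeR). Without DXZ 1 Casp8 passed (0.63, adjusted p = 0.0401 by edgeR). Cflar, which encodes the caspase-8 inhibitor cFLIP, was at 148 ± 0.94 CPM (SD, n = 4) and 145 ± 4.18 CPM (SD, n = 3), with a log2 fold change of -0.03 and a 95% interval of -0.21 to 0.15 (adjusted p = 0.830 by edgeR).

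The NF-kB list of 12 kinases, subunits and inhibitors had 1 call and a median log2 fold change of 0.20. For this list and the next, the shares over all tested genes were 3.24% called higher and 2.31% called lower. Rela, the p65 subunit, was at 78.0, 84.6, 74.9 and 74.6 CPM in saline and 95.02, 107 and 103 CPM in DXZ (log2 fold change 0.38, adjusted p = 0.0477 by edgeR, SE 0.09). It passed in 3 of 14 alternatives. It did not pass with median-of-ratios scaling (adjusted p = 0.0526 by edgeR), with no filter (0.0952 by edgeR), or in the limma fits to FPKM with a pseudocount of 1 (0.0514) or 0.1 (0.0528). Among 5 genes of receptor shedding Rhbdf2, a partner of the sheddase ADAM17 that releases TNF and TNF receptors, rose. Its means were 35.01 ± 0.90 CPM (SD, n = 4) in saline and 50.1 ± 6.38 CPM (SD, n = 3) in DXZ (log2 fold change 0.52, adjusted p = 0.0338 by edgeR). The rest of the shedding list was not called, with log2 fold changes of 0.33 (Adam10), 0.25 (Rhbdf1), -0.21 (Adam17) and -0.66 (Timp3). The 7 called genes of these lists, Birc3, Ripk1, Ripk3, Mlkl, Dap, Rela and Rhbdf2, all lost their call without saline 4 (edgeR adjusted p 0.0958 to 0.142) and without DXZ 2 (0.0901 to 0.134). Of the 7 fits without a library, Ripk3, Mlkl and Dap passed in 2 each and Rela and Rhbdf2 in 1 each.

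**Figure D5:**
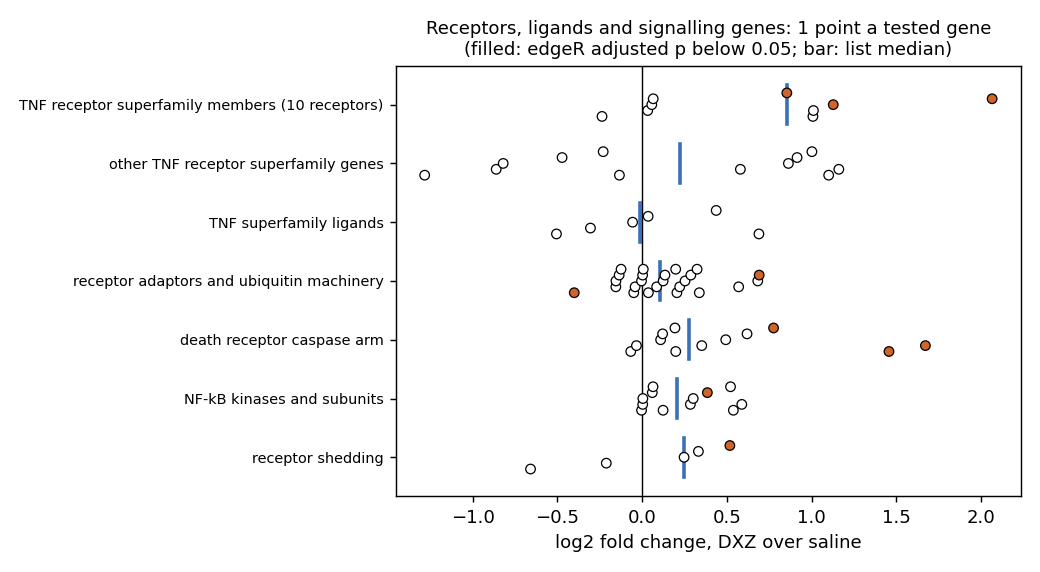
Log2 fold change of DXZ over saline (horizontal axis) for each tested gene of the 10 receptors and of 6 related lists (rows), filled where the edgeR adjusted p is below 0.05, with the list median as a bar. The receptor median is 0.85, those of the other lists lie between -0.01 and 0.28, and no ligand is filled. The 10 receptors and the lists were chosen with earlier results of these data known.

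The genes whose pattern was closest to that of Tnfrsf12a were found by the root mean square difference in log2 CPM, centred per gene over the 7 libraries, among the 15350 other tested genes. They were Ppp1r14b, encoding a phosphatase inhibitor (difference 0.10), Rras, a small GTPase gene (0.11), Btg2, an antiproliferative p53 target (0.13), Hap1, a huntingtin-associated protein gene (0.14), and Tmsb10, a thymosin gene (0.14). Ppp1r14b, the closest, was at 48.8, 66.8, 65.4 and 47.3 CPM in saline 1 to 4. The DXZ libraries 1 to 3 stood at 122, 114 and 126 CPM. As in Tnfrsf12a, saline 1 and 4 were the low saline libraries, a likeness that follows from how the gene was chosen. Among the other receptors Tnfrsf1b was the most similar, at place 17 with a difference of 0.17, and Tnfrsf10b was at place 501 with 0.34. Tnfrsf23, with its larger fold, was at place 11042 with 0.78, and Tnfrsf21 at place 9565 with 0.71.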

How the data were processed

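Gene expression was measured by RNA-seq in 7 kidney libraries, 4 saline and 3 DXZ. The deposited count table holds raw read counts per gene, and the FPKM table deposited by the authors gives those counts per gene length and per library constant, 1.005 times the median-of-ratios library size computed here. HISAT2, StringTie and mm9 are named in the submitters' processing notes, without roles. Coordinates are those of GRCm38: of 54409 gene identifiers shared with GENCODE M21, 98.3% had the same start and end. The counter and its strand setting: not given in the sources used here.

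Counts were tested in R 4.3.3 with edgeR 4.0.16 (filterByExpr, TMM, quasi-likelihood F test, Benjamini-Hochberg adjustment over 15351 genes, threshold 0.05). SE was taken as the log2 difference over root F, and 95% intervals use the fit's degrees of freedom. On simulated data (15111 genes, 200 changed) 47.6% of 2-fold and 80.5% of 4-fold changes were recovered. Alternatives were median-of-ratios scaling, no filter, DESeq2 1.42.0, limma 3.58.1 (voom with quality weights; log2 of FPKM plus 1 or 0.1 at a mean FPKM of at least 1), the replicate number as a block, and each library left out. Ratios used SciPy 1.17.1. The members and lists were chosen with earlier results of these data known. The rule for named genes took the 10 members, 11 further genes, up to 4 called genes per list, and the 5 genes most like Tnfrsf12a.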

Additional observations from a re-analysis of the deposited data

Results flagged for a closer look

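In the saline group, 33 named genes were examined for a library far from the other 3, where chance marks about 1 in 20. Mlkl was at 6.54 CPM in saline 2 and at 3.38 to 3.60 CPM in the other saline libraries. Fasl was at 0.0573 CPM in saline 1, which is 1 count, and at 0 in the other saline libraries.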

How the results depend on the processing

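Of 15351 tested genes 853 were called with all libraries, 2116 by DESeq2, 85 with the replicate block, and 1 to 1574 when each library was left out. The members called were 3 in the edgeR fit, 0 with the replicate block, and 0 to 3 when each library was left out, with 0 without saline 4 or DXZ 2, 1 without DXZ 3 and 2 without saline 1, 2 or 3. With no filter and by DESeq2, 4 members were called, and by limma-voom 2, with Tnfrsf23 at an adjusted p of 0.0547. Tnfrsf12a, Tnfrsf1b, Tnfrsf10b, Tnfrsf22 and Tnfrsf23 were positive in all 14 alternatives. Same-numbered libraries did not deviate together in each pair (correlations over genes of 0.26, -0.09 and 0.23 for numbers 1, 2 and 3), so the numbers are not taken as pairs. With the replicate block Tnfrsf12a was at 1.11, Tnfrsf1b at 0.82 and Tnfrsf23 at 1.86. Only saline has a number 4, so saline 4 adds nothing to the group difference in that fit, as when it is left out. Genes that did not pass and changed sign were Fas (-0.095 by limma-voom, -0.0092 with the replicate block, -0.059 to 0.17 with a library left out), Tnfsf12 (0.011 by limma-voom, -0.19 to 0.047 with a library left out) and Ltbr (-0.037 to 0.11 with a library left out). The cause of these changes was not tested. With 7 libraries, 47.6% of simulated 2-fold changes were called, so a gene that did not pass may still differ. The simulation changed 200 of 15111 genes, fewer than the 853 called in the data, so this rate need not hold for the data.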
